A study of Rattus norvegicus with 45 samples.

Results

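The relation between maternal licking and grooming and gene expression was compared between prenatal exposures in female rat pups, over all 22 female libraries of the 45 in the series. The members were chosen by the table they stand in, with no measured value used. For each gene, the slope of expression on the dam's licking/grooming value was fitted within each exposure, and the slope after corn oil was subtracted from the slope after each bisphenol treatment. Each library counted transcripts by tags at their 3' ends in the medial preoptic area of 1 pup on postnatal day 10, and by the library names the 22 pups came from 22 different litters. Their dams had been dosed from gestation day 8 until birth with Corn Oil alone (5 libraries), 50 µg/kg BPA (bisphenol A, 6 libraries), 50 µg/kg Mixed Bisphenols (6 libraries) or 150 µg/kg Mixed Bisphenols (5 libraries). The mixture held BPA, BPS and BPF in equal parts, so its doses are totals over 3 compounds. No strain is given in the labels, cage pairs of dams were the unit of assignment, and licking/grooming was recorded over postnatal days 1 to 5 rather than set by the experimenters.

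The medial preoptic area lies at the front of the hypothalamus and is known for its part in maternal care, mating and hormone release. Licking and grooming is the main tactile stimulation a rat pup receives from its dam, and it is known to affect the stress axis and receptor expression of the offspring's brain. Bisphenols are plastic monomers that bind estrogen receptors weakly, and BPA binds the estrogen-related receptor gamma, the product of Esrrg, which the series names in its title. The leptomeninges, thin fibroblast-rich membranes that cover the brain and follow its vessels inward, make collagens, fibronectin and laminin chains of the matrix, as well as retinoic acid.

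Licking/grooming ran from 117 to 547 after corn oil, from 219 to 516 after BPA, from 108 to 424 after the 50 µg/kg mixture and from 91.9 to 428 after the 150 µg/kg mixture, in a unit the labels do not give. The slopes below are log2 changes per 1 SD of licking/grooming (123.5 in these units), and a slope difference is one such slope minus another. Library totals were 4397460 to 7223180 counts, and 18354 of 40643 genes had enough counts to test. Of 20 preoptic region markers, 12 were tested and Hmx3 and Six6 had 0 counts in all 22 libraries, while all 13 markers of the neighbouring striatum were tested. The summed level of the preoptic markers ranged from 115 to 354 CPM (counts scaled to the library's total) and that of the striatal markers from 1292 to 3217 CPM.

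The 3 slope differences from corn oil tested jointly passed the threshold, a Benjamini-Hochberg adjusted p of 0.05, at 0 genes by edgeR (0% of 18354, lowest adjusted p = 0.179). At an unadjusted p under 0.05 there were 1159 genes, or 6.31%. DESeq2 called 14 of the 11959 genes it kept, or 0.117%, and limma's voom called 1. The DESeq2 genes were Lama2, Fam174b, Ranbp3l, Col5a1, Cped1, Adamtsl1, Fbln1, Thsd4, Aldh1a2, Col6a3, Sned1, Ddr2, Etl4 and Colec12, and the voom gene was Ranbp3l. Lama2, Col5a1, Adamtsl1, Fbln1, Thsd4, Col6a3 and Sned1 encode proteins of the extracellular matrix, Ddr2 a receptor for one, and Ranbp3l and Aldh1a2 stand in the list of meningeal markers. All 14 had a positive slope after the 50 µg/kg mixture and a negative one after the 150 µg/kg mixture.

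Of the 6 differences between single slopes, the one between the mixture doses had the most called genes. Each was adjusted over genes only, not for the number of differences. A fit on only the 2 mixture groups called 0 genes. In 6 genes (0.0327% of 18354) the slope after 150 µg/kg was lower than the slope after 50 µg/kg by edgeR, each with an adjusted p of 0.0241. They were Lama2, Ranbp3l, Ddr2, Cped1, Etl4 and Fam174b, and both other tools called all 6. The voom fit called 33 genes (0.18%), 32 of them negative, and DESeq2 called 79 of 17914 (0.441%), 78 of them negative. The 5 other differences between single slopes had 0 genes past the threshold by edgeR, with 689 genes at an unadjusted p under 0.05 for BPA against oil, 654 for the 50 µg/kg mixture against oil, 1500 for the 150 µg/kg mixture against oil, 961 for the 50 µg/kg mixture against BPA and 578 for the 150 µg/kg mixture against BPA. DESeq2 called 0, 0, 1, 2 and 1 gene in these, and voom called 0 in each. In the same order, 2%, 2.2%, 4.2%, 3.02% and 1.66% of all genes were positive at that unadjusted p by edgeR. The negative shares were 1.75%, 1.37%, 3.98%, 2.22% and 1.49%. For the 150 µg/kg mixture against oil, 1500 became 565 without oil replicate 5, the least licked oil pup, and 1047 without oil replicate 4.

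Lama2 encodes the laminin alpha-2 chain of basement membranes, the chain lost in a congenital muscular dystrophy. After the 50 µg/kg mixture its level, in order of rising licking/grooming, was 15.4, 24.4, 27.6, 31.3, 46.4 and 38.4 CPM. After the 150 µg/kg mixture it was 38.5, 39.0, 31.6, 22.7 and 16.4 CPM in the same order. The lower dose was thus lowest in the pup with the least licking and the higher dose lowest in the pup with the most. After corn oil Lama2 was 28.3, 29.8, 21.1, 25.3 and 37.1 CPM, and after BPA 34.3, 32.7, 29.3, 32.2, 20.6 and 22.0 CPM. The slopes were 0.55 ± 0.11 (SE) and -0.37 ± 0.11 for the 2 mixture doses, 0.09 ± 0.09 for oil and -0.29 ± 0.12 for BPA. The slope difference between the mixture doses was -0.92 ± 0.16.

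Ranbp3l encodes a Ran-binding protein that exports SMAD proteins from the nucleus in the mouse and is a marker of leptomeningeal fibroblasts. Its levels after the 50 µg/kg mixture were 10.4, 32.0, 31.7, 44.2, 53.7 and 59.3 CPM in order of licking/grooming. After the 150 µg/kg mixture they were 48.7, 53.4, 33.4, 30.03 and 15.7 CPM. The oil libraries stayed between 26.8 and 37.7 CPM and the BPA libraries between 25.2 and 36.6 CPM, so both mixture doses spread beyond the other 2 groups at both ends. The slope difference between the doses was -1.31 ± 0.20, from slopes of 0.83 ± 0.15 and -0.48 ± 0.14.

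Ddr2, a receptor for fibrillar collagen, ran through 4.85, 9.46, 9.28, 13.7, 16.3 and 14.8 CPM after the 50 µg/kg mixture. After 150 µg/kg it ran through 13.5, 14.2, 11.1, 6.67 and 4.70 CPM, a slope difference of -1.04 ± 0.18. Cped1, which encodes a protein with cadherin-like and PC-esterase domains, had 6.93, 11.7, 11.7, 17.5, 24.1 and 16.3 CPM after the lower dose. After the higher dose it had 17.4, 18.4, 11.7, 8.45 and 5.87 CPM, a difference of -1.07 ± 0.19. In both genes the least licked pup was the lowest of its group at the lower dose, and the most licked pup the lowest at the higher dose.

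Etl4 and Fam174b were called with smaller differences. Etl4, also known as Skt, which takes part in intervertebral disc development in the mouse, had 70.7, 70.5, 82.8, 97.7, 101.2 and 91.8 CPM after 50 µg/kg and 108.6, 103.1, 83.8, 85.4 and 66.5 CPM after 150 µg/kg (difference -0.44 ± 0.07). Fam174b, which encodes a small membrane protein, had 43.5, 46.5, 64.9, 61.5, 68.7 and 76.2 CPM after 50 µg/kg. After 150 µg/kg it lay between 54.0 and 68.1 CPM with no steady order, and its slope there was -0.07 ± 0.05. Its difference of -0.39 ± 0.07 stood beside a slope of 0.32 ± 0.05 at the lower dose.

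**Figure D1:**
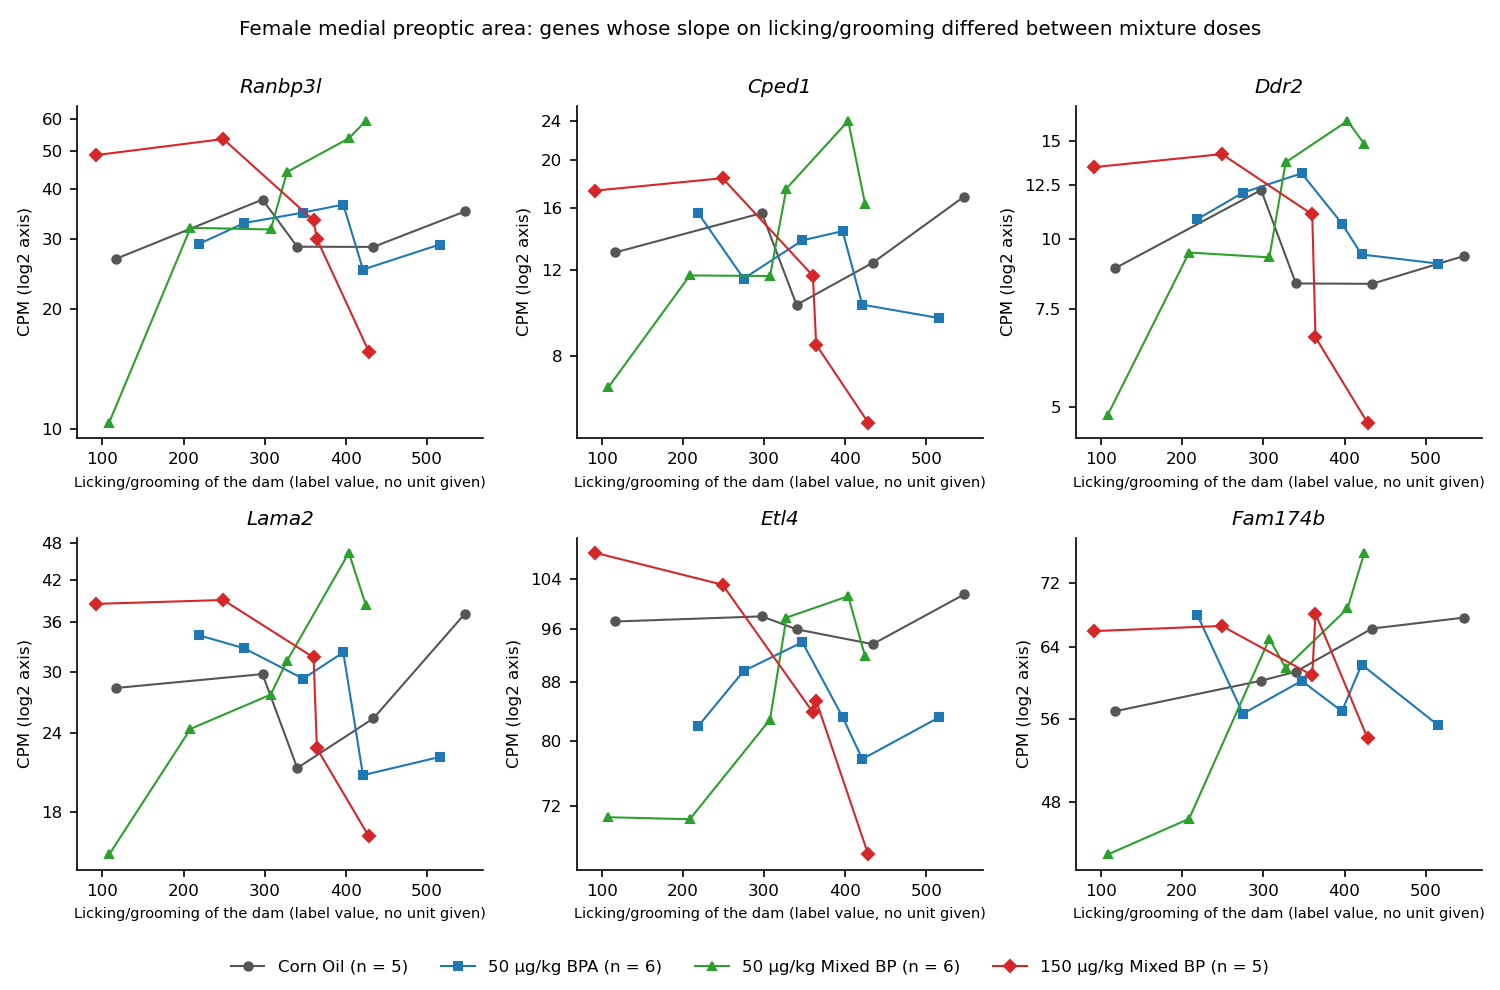
Level of the 6 called genes in each female library (CPM, log2 axis) against the licking/grooming value of the pup's dam, with lines joining the libraries of an exposure in that order. Ranbp3l climbs from 10.4 to 59.3 CPM after the 50 µg/kg mixture and drops from 48.7 to 15.7 CPM after the 150 µg/kg mixture, while the corn oil libraries stay between 26.8 and 37.7 CPM.

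The promoters of the called genes are shown for Lama2, the called gene with the second lowest joint p, and Ranbp3l, which had the widest difference, because their slopes were opposed in the same way. The windows are the 250 bases before the first listed start of each gene, from RefSeq on build GRCr8, which is later than the mRatBN7.2 build named in the submitters' processing notes. Capitals mark the E-box CAGCTG.
Lama2, chr1:19491896-19492145, plus strand: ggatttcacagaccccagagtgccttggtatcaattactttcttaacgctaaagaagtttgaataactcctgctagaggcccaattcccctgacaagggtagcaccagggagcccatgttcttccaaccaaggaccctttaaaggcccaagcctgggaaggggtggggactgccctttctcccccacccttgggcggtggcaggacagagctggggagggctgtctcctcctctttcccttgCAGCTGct
Ranbp3l, chr2:59784820-59785069, plus strand: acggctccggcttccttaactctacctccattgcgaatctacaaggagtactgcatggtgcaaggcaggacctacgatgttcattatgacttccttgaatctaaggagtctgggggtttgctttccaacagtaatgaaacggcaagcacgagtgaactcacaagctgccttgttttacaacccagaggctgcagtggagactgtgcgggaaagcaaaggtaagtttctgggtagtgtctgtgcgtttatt
Windows were found for 5 of the 6 called genes and for 61 of the 84 genes named by rule. The estrogen-related receptor half-site AAGGTCA, searched on both strands, was in 0 of the 5 windows and in 3.77% of all 27457. The E-box CAGCTG was in 1 of 5, that of Lama2, and in 11.9% of all, and the AP-1 motif TGANTCA was in 0 of 5 and in 6.36% of all. Each motif was searched on its own, so matches of different motifs could overlap, and a match is a description of the letters only.

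Meningeal markers as a group had the steepest opposed slopes. The list was written with earlier results of these data known, and the called Ranbp3l is a member. Between the mixture doses, 12 of the 13 tested had a negative difference and all 12 had an unadjusted p under 0.05, beside a background of 6.09% of all genes negative at that p (5.5% positive). The median over the 13 was -1.17 and over all genes 0.003. Only Spp1, which encodes osteopontin and is named here after its values were seen, had a positive one (0.16). Against corn oil, 12 of 13 were positive after the 50 µg/kg mixture, 7 of them at p under 0.05 (background 2.2% positive and 1.37% negative), with a median of 0.65. After the 150 µg/kg mixture 12 of 13 were negative, 4 at p under 0.05 (background 3.98% negative and 4.2% positive), with a median of -0.51. The 2 comparisons share the corn oil libraries, whose own median slope for this list was 0.04. Single libraries moved these medians: with replicate 5 of the 50 µg/kg mixture left out, 0.65 became 0.25. In the 150 µg/kg mixture, -0.51 became -0.26 with replicate 2 left out and -1.18 with replicate 1 left out, and the median between the doses became -1.87 in the latter case.

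Aldh1a2, the enzyme by which meninges make retinoic acid, was 3.05, 12.3, 10.4, 19.2, 18.0 and 16.2 CPM along licking/grooming after the 50 µg/kg mixture. After the 150 µg/kg mixture it was 16.3, 17.1, 8.70, 6.90 and 3.33 CPM. The difference between doses was -1.42 ± 0.30 (edgeR adjusted p = 0.0947), so it missed the threshold by edgeR, while voom and DESeq2 called it. Bmp7, a bone morphogenetic protein secreted by the meninges, had a difference of -0.54 ± 0.14. Outside the list, Foxc2, a forkhead factor of mesenchymal and vessel-forming cells, had only 0.55 to 6.71 CPM after the lower dose and 0.59 to 3.55 CPM after the higher, with a difference of -1.48 ± 0.35.

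Markers of fibroblasts and pericytes showed the same opposed slopes. Of 22 tested, 19 had a negative difference between the doses, and the median was -0.84. At p under 0.05 there were 13 of them (background 6.09% negative and 5.5% positive). Col6a3, a chain of the microfibril-forming collagen VI, had -1.08 ± 0.21, and Lum, a proteoglycan that spaces collagen fibrils, had -0.95 ± 0.24. In the same list, Slc6a13, a GABA and taurine transporter of the meninges, had -1.51 ± 0.35. It ran from 6.65 CPM in the least licked pup of the lower dose to 57.1 CPM in the most licked one, and from 42.2 to 7.63 CPM after the higher dose. Against oil, 21 of 22 were positive after 50 µg/kg (4 at p under 0.05, background 2.2%, median 0.41). After 150 µg/kg, 17 of 22 were negative against oil (2 at p under 0.05, background 3.98%, median -0.26). Without replicate 5 of the 50 µg/kg mixture the first median was 0.22 and the median between doses -0.53. Without replicate 1 of the 150 µg/kg mixture the second was -0.79 and the median between doses -1.39, and without replicate 2 the second was -0.15.

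Fibrillar collagens and other interstitial matrix genes were likewise mostly negative. Of 50 tested, 44 had a negative difference between the doses, with a median of -0.49. At p under 0.05, 28 were negative and 1 positive (background 6.09% negative and 5.5% positive). The called Cped1 is a member, and the list was written with earlier results of these data known. Against oil, 42 of 50 were positive after 50 µg/kg, 16 at p under 0.05 (background 2.2%). After 150 µg/kg, 43 of 50 were negative against oil, 4 at p under 0.05 (background 3.98%). Tgfbi, a secreted adhesion protein induced by TGF-beta, had the lowest p of any gene for the 50 µg/kg mixture against oil (difference 1.67 ± 0.28, edgeR adjusted p = 0.0545). Its levels there were 0.42, 1.21, 0.86, 1.91, 4.85 and 4.64 CPM, against 2.26, 2.07, 1.67, 1.77 and 1.06 CPM after oil. The 2 most licked pups of the mixture stood above every oil library, but all values were low. After the 150 µg/kg mixture Tgfbi had a slope of 0.08 ± 0.18, where it stayed between 2.21 and 3.10 CPM.

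Col5a1, the chain that starts collagen fibrils, had its lowest value, 9.98 CPM, in the least licked pup after 50 µg/kg and its lowest after 150 µg/kg, 9.39 CPM, in the most licked one, with a difference between doses of -0.85 ± 0.17 (edgeR adjusted p = 0.072). Fbln1, a fibulin of elastic fibres, had -0.92 ± 0.19, and Thbs2, a matrix thrombospondin that limits vessel growth, -1.12 ± 0.26. Sned1, Colec12 and Thsd4 encode a matrix glycoprotein, a scavenger receptor of the collectin family and a microfibril-associated protein, and their differences were -1.06 ± 0.23, -0.94 ± 0.19 and -0.68 ± 0.15. Each of these genes missed the threshold by edgeR. For the same difference, voom and DESeq2 both called Fbln1, Sned1, Colec12 and Thsd4. Col5a1 was called by DESeq2 only, and Thbs2 by neither.

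Laminins, basement membrane proteins and matrix receptors were also mostly negative. Of 39 tested, 29 had a negative difference between the doses. At p under 0.05, 12 were negative and 0 positive (background 6.09% negative and 5.5% positive). The median was -0.18, and it was -0.29 without replicate 1 and -0.10 without replicate 3 of the 50 µg/kg mixture. Beside the called Lama2 and Ddr2, Col4a6, a basement membrane collagen chain, had -0.40 ± 0.13. In TGF-beta and BMP signalling, 26 of 33 were negative, 8 at p under 0.05 (background 6.09%). The co-receptor Tgfbr3 had -0.68 ± 0.16, the receptor Tgfbr2 -0.43 ± 0.12 and the inhibitor Smad6 -0.89 ± 0.27. Of 13 endothelial markers, 12 were negative, 7 at p under 0.05 (background 6.09%), with a median of -0.24. The transporter Slco1a4 had -0.60 ± 0.18.

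**Figure D2:**
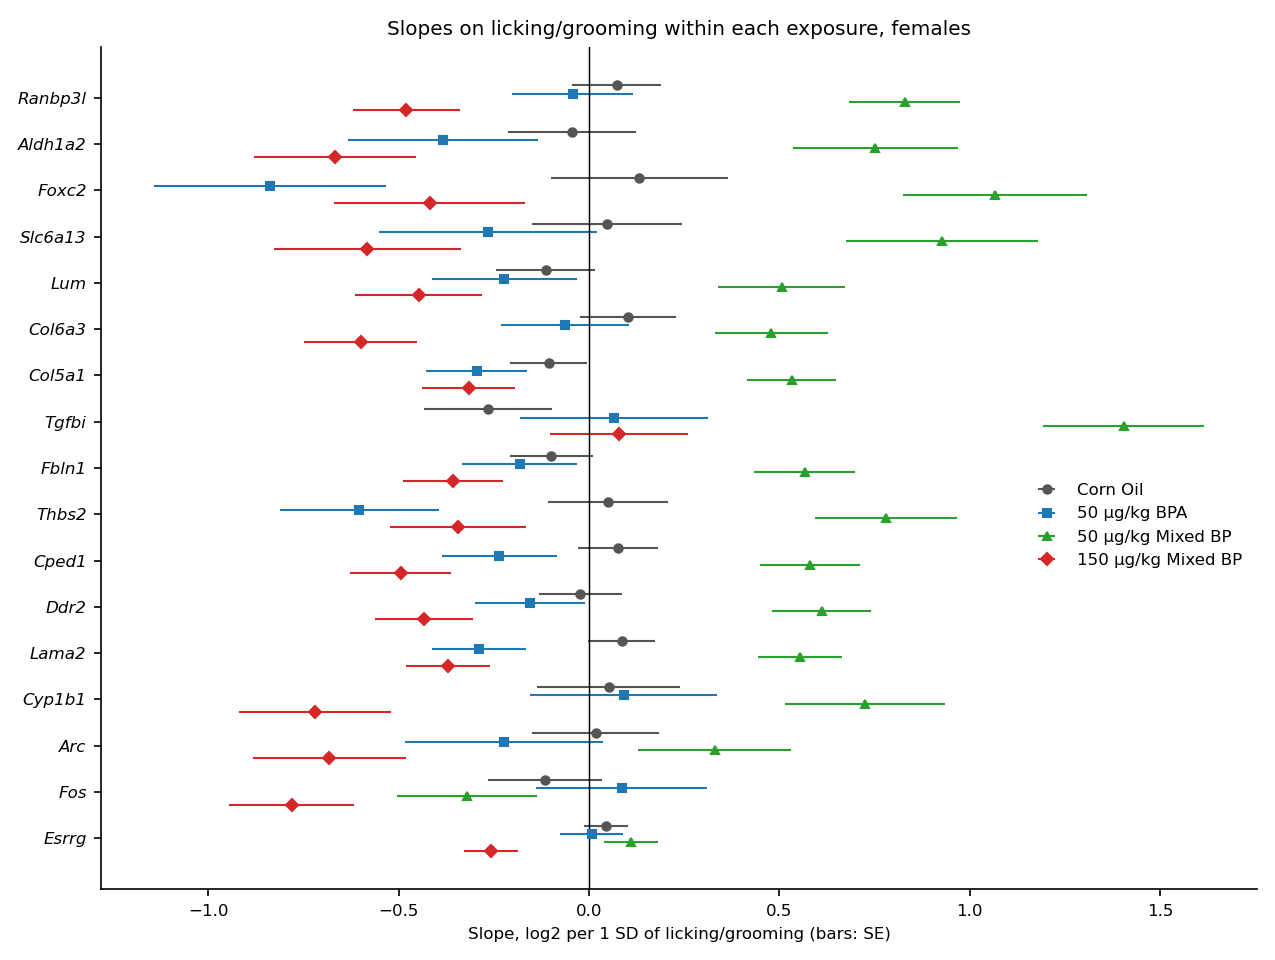
Slopes on licking/grooming (log2 per 1 SD, points, with SE bars) in each exposure for 17 of the named genes. From Ranbp3l to Cyp1b1 the green 50 µg/kg mixture slopes lie to the right of 0, and the red 150 µg/kg slopes to the left except for Tgfbi at 0.08.

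Markers of other cells and regions moved with these differences. The mean log2 CPM of the meningeal list was 2.99 in the least licked pup of the 50 µg/kg mixture and 4.27 to 4.83 in the other 5. After the 150 µg/kg mixture it was 4.58, 4.77, 4.34, 3.90 and 2.93 in order of licking. Summed over the list, the range was 325 to 687 CPM after oil, 300 to 776 after BPA, 163 to 1356 after the lower mixture dose and 177 to 1175 after the higher, and none of its 14 members in the table was at 0 in every library. These bulk samples cannot tell fewer cells of a type from less RNA per cell. With the meningeal mean added to the model, an alternative chosen after the data were seen, the difference between doses was -0.27 to -0.42 in the 6 called genes and 0 genes passed. It was smaller in 5 of them, while in Fam174b it was -0.41 against -0.39. Ranbp3l is itself a member of that list, so part of its change from -1.31 to -0.42 is built in. With the fibroblast and pericyte mean added it was -0.34 to -0.82, with 0 genes past the threshold and Fam174b at -0.45. Red blood cell markers were negative between the doses in 8 of 8 (median -0.38, 0 at p under 0.05, background 6.09%), and microglia and macrophage markers in 11 of 14 (median -0.21, 3 at that p). The part of these in the result was not tested.

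The number of called genes moved with single libraries. It fell to 0 genes without the least licked pup of the 50 µg/kg mixture, without replicate 3 of that group or without the most licked pup of the 150 µg/kg mixture. It fell to 2 without replicate 4 of the 150 µg/kg mixture. The least licked pup of the 50 µg/kg mixture also had the highest total of the 22 libraries, 7223180 counts, and the part of depth was not tested. Without both end libraries, the pair chosen after the data were seen, the 6 differences were -0.38 to -0.85 and the meningeal median -0.62. Leaving out any 1 of the 22 libraries, the Lama2 difference was -0.79 to -1.35, that of Ranbp3l -1.03 to -1.94, of Ddr2 -0.89 to -1.60, of Cped1 -0.94 to -1.66, of Etl4 -0.38 to -0.62 and of Fam174b -0.33 to -0.50. Each was largest in size when the least licked pup of the higher dose was left out. All 6 stayed negative under each of 38 alternative settings. These settings reuse the libraries in which the 6 genes were called for their negative difference, so a kept sign was close to given beforehand.

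The striatal markers had a negative difference between the doses in 13 of 13, 0 of them at p under 0.05 (median -0.43). The preoptic markers had a positive one in 11 of 12, 2 at that p (median 0.31). Of all genes, 6.09% were negative and 5.5% positive at that p. With the striatal mean minus the preoptic mean in the model, 1 gene was called, Fam174b, and the meningeal median was -0.76. Ependymal and choroid plexus markers were mostly of the opposite sign. Of 11 tested, 8 were positive between the doses, 5 at p under 0.05 (background 5.5%), and 1 was negative at that p (background 6.09%). The cilium genes Cfap126, Rsph1 and Dnah9 had 0.88 ± 0.26, 0.71 ± 0.21 and 0.38 ± 0.13. What part the region and cell type markers had in the differences between doses was not tested beyond these fits.

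**Figure D3:**
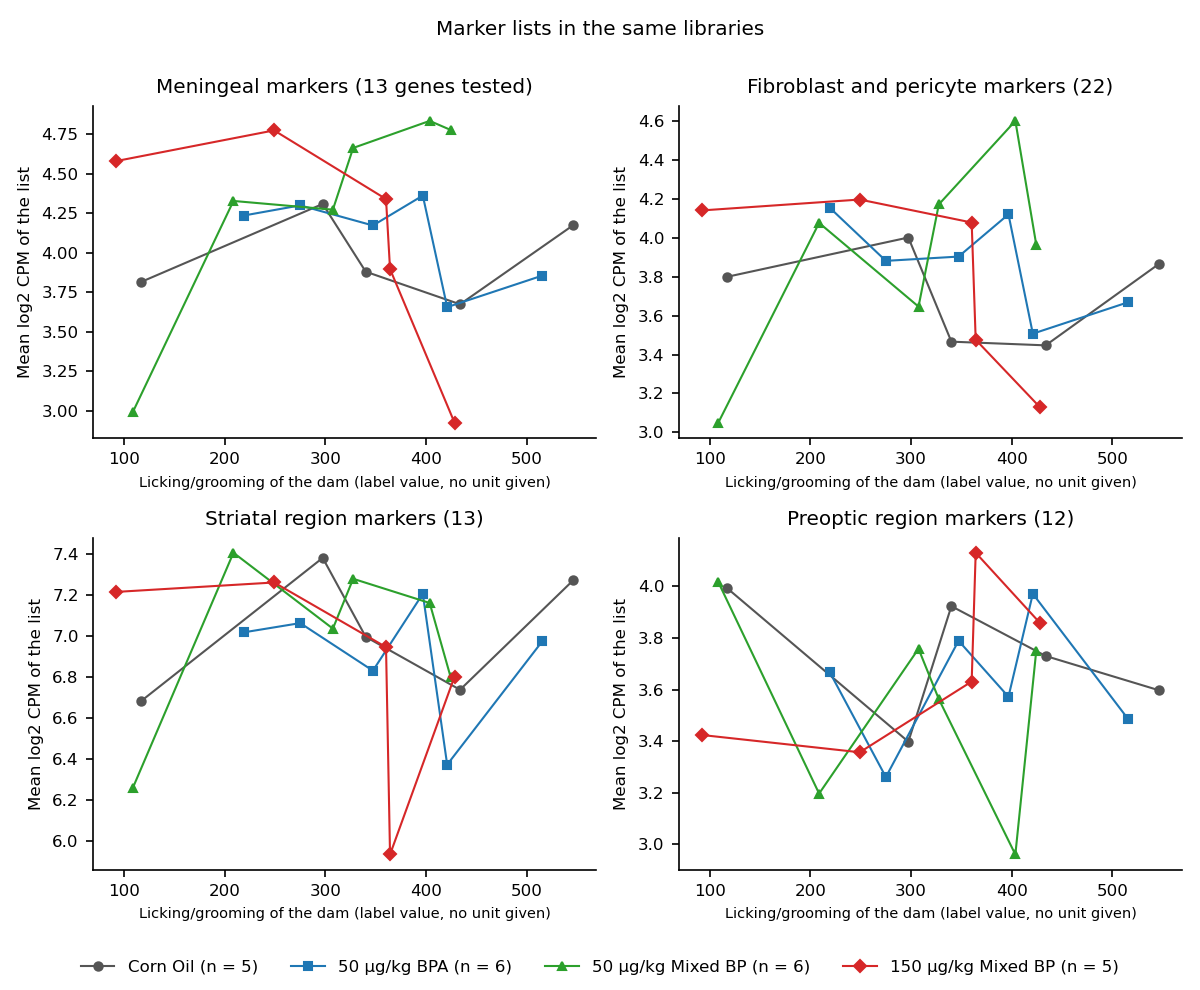
Mean log2 CPM of 4 marker lists in each female library against licking/grooming, with lines joining the libraries of an exposure. The meningeal mean is lowest, at 2.99 and 2.93, in the least licked pup of the 50 µg/kg mixture and the most licked pup of the 150 µg/kg mixture, and the fibroblast mean is low in the same pups.

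For BPA against oil, oligodendrocyte lineage markers had the list median farthest from 0 among the lists compared, with 0 genes past the threshold by edgeR, voom or DESeq2. All 14 oligodendrocyte lineage markers had a positive difference from oil, 6 at p under 0.05 (background 2% positive and 1.75% negative), with a median of 0.33. Their median slope was 0.22 after BPA and -0.16 after oil. In the same comparison, red blood cell markers were negative in 7 of 8 (median -0.31), striatal markers in 13 of 13 (-0.17) and meningeal markers in 13 of 13 (-0.17), and preoptic markers were positive in 10 of 12 (0.16). The part of these in the result was not tested. Bcas1, a marker of early myelinating cells, was 92.6 CPM in the least licked BPA pup and 147 and 133 CPM in the most licked pair. In the oil pups it was 142 at the lowest and 95.3 CPM at the highest licking. The difference was 0.40 ± 0.11 (edgeR unadjusted p = 0.00109).

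Kcnj10, the potassium channel by which astrocytes buffer potassium, had the lowest p of this comparison (difference 0.37 ± 0.08, edgeR adjusted p = 0.998). It was 22.3, 28.1, 31.9, 30.8, 32.6 and 32.6 CPM after BPA and 34.0, 28.6, 28.3, 23.5 and 23.2 CPM after oil, in order of licking. The levels overlapped, with the lowest BPA value and the highest oil value both in the least licked pup. The myelin enzyme Cnp had 0.28 ± 0.11, the calcium-binding S100b 0.25 ± 0.08, the receptor-related Lrp3 0.32 ± 0.08, the irisin precursor Fndc5 0.36 ± 0.10 and the fatty acid desaturase Scd 0.53 ± 0.15. In cholesterol synthesis 18 of 21 were positive, 3 at p under 0.05 (background 2%), with a median of 0.11. The enzyme Nsdhl had 0.34 ± 0.11.

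Named genes with a negative BPA difference included the zinc finger gene Zfp280b (-0.74 ± 0.19), the splicing factor Prpf31 (-1.08 ± 0.27), the arrestin Arr3 (-0.44 ± 0.12) and Lrrc23 of motile cilia (-0.40 ± 0.12). Prpf31 had 6.67 CPM in the least licked BPA pup and 2.20 to 2.83 CPM in the other 5. After oil the least licked pup had 1.32 CPM and the other 4 had 4.14 to 6.02 CPM. In each group the least licked pup stood apart from the rest, on opposite sides, and the difference was -0.60 without the BPA one.

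After the 50 µg/kg mixture, the genes with the lowest p beside Tgfbi and Col5a1 were Ifi27 (0.77 ± 0.18), which interferon induces, Plekhg1 (0.50 ± 0.13), a guanine exchange factor, and Bdh2 (1.04 ± 0.27), a dehydrogenase of siderophore synthesis. The Ifi27 difference was 0.32 without oil replicate 5. Bdh2 was 0.83 to 2.86 CPM and had few counts. Lower than the oil slope were those of Polr2h, a subunit shared by the RNA polymerases (-0.54 ± 0.13), the kinase-like Cdkl4 (-0.76 ± 0.19), the co-chaperone Dnajc16 (-0.31 ± 0.08, and -0.19 without replicate 5 of the mixture) and Llph (-0.35 ± 0.10). Cdkl4 ran from 6.601 to 21.1 CPM with licking after oil and from 25.0 and 24.2 CPM in the 2 least licked pups of the mixture to 14.1 CPM in the most licked. The macrophage mannose receptor Mrc1 had 0.67 ± 0.22, and 0.41 with replicate 5 of the mixture left out.

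For the 150 µg/kg mixture against oil, 0 genes passed the threshold by edgeR or voom and 1, Pou4f1, by DESeq2, and among the lists compared the median was lowest in meningeal markers, striatal markers (-0.37) and immediate early genes. Of the genes with the lowest p, Tpi1 and Aldoa, enzymes of glycolysis, had differences of 0.28 ± 0.07 and 0.34 ± 0.08, the first of them 0.15 without oil replicate 5. Aldoa was 137, 145, 148, 200 and 204 CPM along licking after the mixture and 219, 147, 178, 169 and 149 CPM after oil. Nipa1, a magnesium transporter, had 0.35 ± 0.08, Trpv2, a cation channel, 0.33 ± 0.09 and Yrdc, a tRNA modification gene, 0.31 ± 0.08. In oxidative phosphorylation 43 of 46 genes were positive but only 4 had p under 0.05, and the median was 0.07. Ndufa3 of complex I had 0.20 ± 0.06. Of all genes, 4.2% were positive and 3.98% negative at that p. The list's own slopes had a median of -0.06 after oil, with 1 of 46 positive, and 0.02 after the mixture. BPA against oil gave the same 43 of 46 and 4, and the lower mixture dose 38 of 46 and 0. In cholesterol synthesis 18 of 21 were positive for the 150 µg/kg mixture against oil, 5 at p under 0.05. The kinases Mvk and Pmvk had 0.34 ± 0.12 and 0.21 ± 0.09.

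Kcnh5, a voltage-gated potassium channel of neurons, had the lowest p of this comparison (difference -0.41 ± 0.08, edgeR adjusted p = 0.578). It was 71.8, 68.5, 54.8, 48.3 and 47.0 CPM after the mixture and 47.7, 60.3, 52.6, 58.1 and 75.3 CPM after oil. After the mixture the level was lower at each step of licking, while after oil the least licked pup was the lowest and the most licked the highest. Npnt, a ligand of integrin alpha-8, had -0.50 ± 0.11, and the neuronal glucose transporter Slc2a3 had -0.27 ± 0.07. Of 32 glutamate and GABA receptor genes, 7 were negative at p under 0.05 and 1 positive (background 3.98% negative and 4.2% positive). Grin1 and Grin2a, NMDA receptor subunits, had -0.21 ± 0.08 and -0.28 ± 0.09, and the metabotropic receptor Grm7 -0.22 ± 0.08.

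Immediate early genes, which neuronal activity induces within minutes, were negative against oil in 17 of 20 after the 150 µg/kg mixture. At p under 0.05 there were 5 (background 3.98% negative and 4.2% positive), and the median was -0.27. Of all genes, 9197 of 18354 were negative. Fos was 9.53, 3.55, 3.36, 2.002 and 2.35 CPM along licking, against 4.34, 3.96, 3.70, 3.01 and 3.52 CPM after oil (difference -0.67 ± 0.22). Without the least licked pup of the mixture, replicate 1, the Fos difference was -0.30. Arc, a synaptic scaffold, was 4.60, 2.66, 2.37, 1.34 and 0.98 CPM after the mixture (difference -0.70 ± 0.26). In both genes the least licked pup of the mixture stood above every oil library and the 2 most licked pups below every one. The synaptic scaffold gene Homer1 had -0.19 ± 0.08. For the same 20 genes the median difference from oil was -0.01 for BPA and 0.02 for the lower mixture dose.

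**Figure D4:**
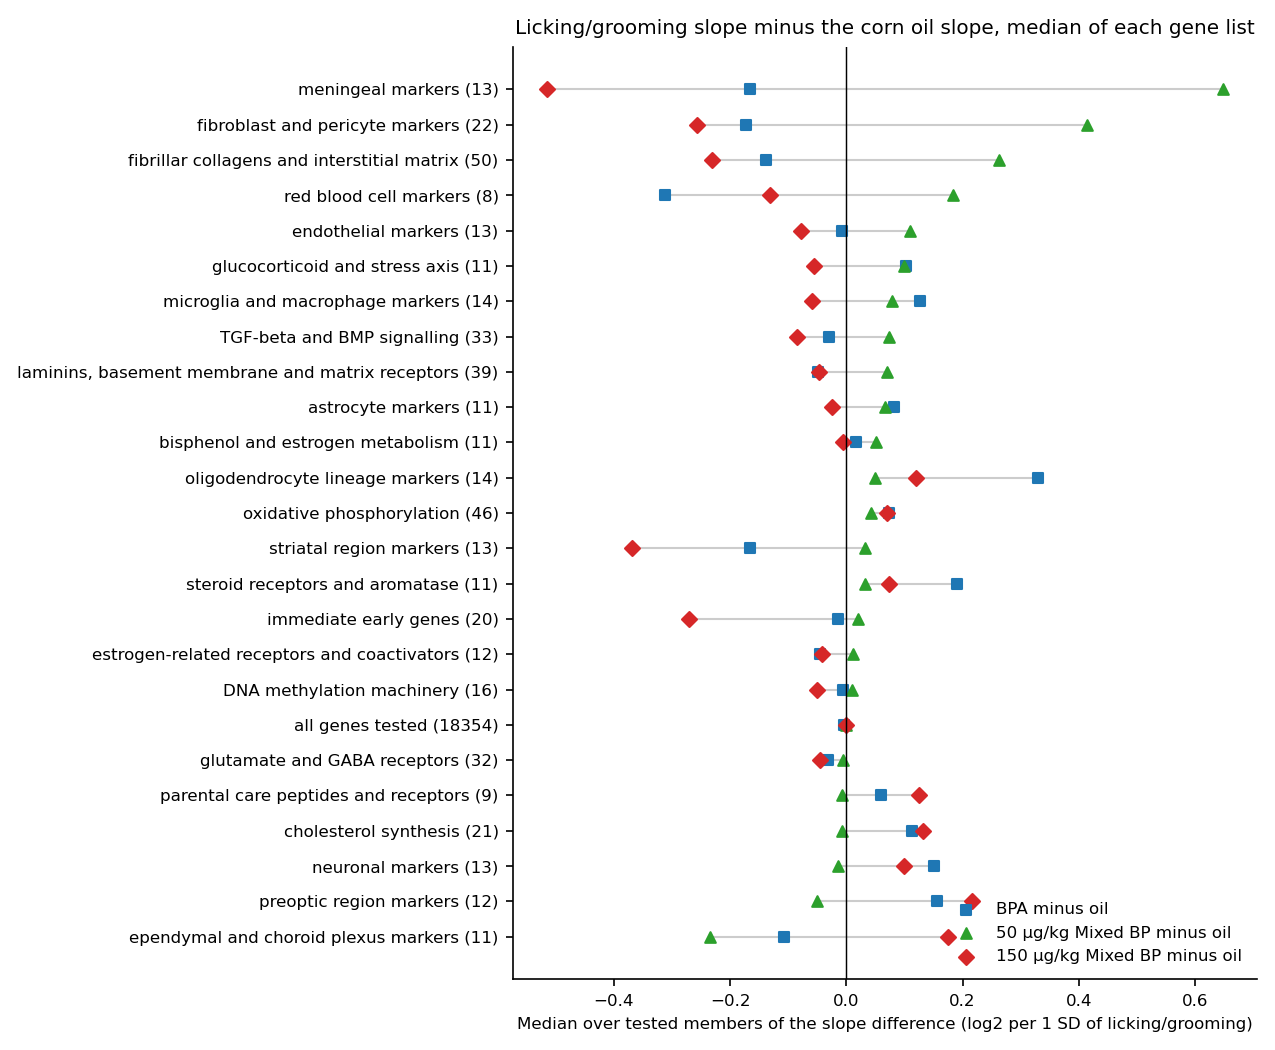
Median over the tested members of each gene list (number tested in brackets) of the licking/grooming slope minus the corn oil slope, for BPA (squares), the 50 µg/kg mixture (triangles) and the 150 µg/kg mixture (diamonds). Meningeal markers span 0.65 to -0.51, oligodendrocyte markers stand at 0.33 after BPA, and all genes together lie at 0.

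Esrrg itself was 129, 160, 128, 124 and 157 CPM along licking after oil and 175, 166, 121, 102 and 121 CPM after the 150 µg/kg mixture. The 2 least licked pups of that mixture stood above every other female library, and the group's other 3 stood below every oil library. Its slope difference from oil was -0.30 ± 0.09 (edgeR unadjusted p = 0.00316), and for the 3 differences jointly the adjusted p was 0.675. For BPA the difference from oil was -0.04 ± 0.10, and for the lower mixture dose it was 0.06 ± 0.09. Among 12 estrogen-related receptors and coactivators, Esrrg was the only one with a joint p under 0.05, a share of 8.33% against 6.31% of all genes.

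Steroid receptors and aromatase gave 0 of 11 genes with a joint p under 0.05, where all genes gave 6.31%. Of 11 tested genes of bisphenol and estrogen metabolism, 3 had one (27.3%). Cyp1b1, which hydroxylates estrogens and is made by vascular and meningeal cells, was 1.53, 4.43, 5.39, 8.77, 9.17 and 5.16 CPM after the 50 µg/kg mixture and 8.51, 5.54, 4.74, 2.45 and 1.37 CPM after 150 µg/kg. Its difference between doses was -1.44 ± 0.29 (edgeR adjusted p = 0.072). The phenol sulfotransferase Sult1a1 had -1.06 ± 0.23 and the dioxin receptor Ahr -0.41 ± 0.13. DESeq2 called the differences of Cyp1b1 and Sult1a1 between the doses, and edgeR and voom called neither.

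Among genes of parental care and stress, Mc4r, the melanocortin receptor, had -0.52 ± 0.18 against oil after the 150 µg/kg mixture. Nts, the peptide neurotensin, had 0.32 ± 0.12 and the mineralocorticoid receptor Nr3c2 -0.45 ± 0.12 between the doses. Each missed the threshold by edgeR, and DESeq2 called the Nr3c2 difference between doses.

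Male pups gave the same comparison in separate libraries, though not separate litters, since by the library names 21 of 24 litters gave both sexes. The joint test had 0 of 18426 genes past the threshold by edgeR in males, with 877 at an unadjusted p under 0.05, and the difference between mixture doses also had 0, with 1775 at that p. For the 6 genes called in females, the male differences between doses were -0.02 ± 0.18 for Lama2, -0.41 ± 0.26 for Ranbp3l, -0.36 ± 0.21 for Ddr2, -0.03 ± 0.23 for Cped1, -0.14 ± 0.11 for Etl4 and 0.13 ± 0.09 for Fam174b. The meningeal list had 11 of 13 negative in males, 1 at p under 0.05, with a median of -0.30. Of all 18426 genes tested in males, 711 were negative at that p. The female difference minus the male one was -0.91 ± 0.25 for Lama2 and -0.52 ± 0.12 for Fam174b (edgeR adjusted p = 0.999 and 0.765). Over all genes, the edgeR test of this sex difference had 0 past the threshold (841 at an unadjusted p under 0.05). Litter was not modelled in that fit over 45 libraries, so its SEs and p-values treat littermates as independent. With litter as a block, voom was run for the sex difference in the joint test of slope differences from oil. It had 0 of 19026 genes past the threshold (644 at an unadjusted p under 0.05). The sexes were thus not shown to differ.

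**Figure D5:**
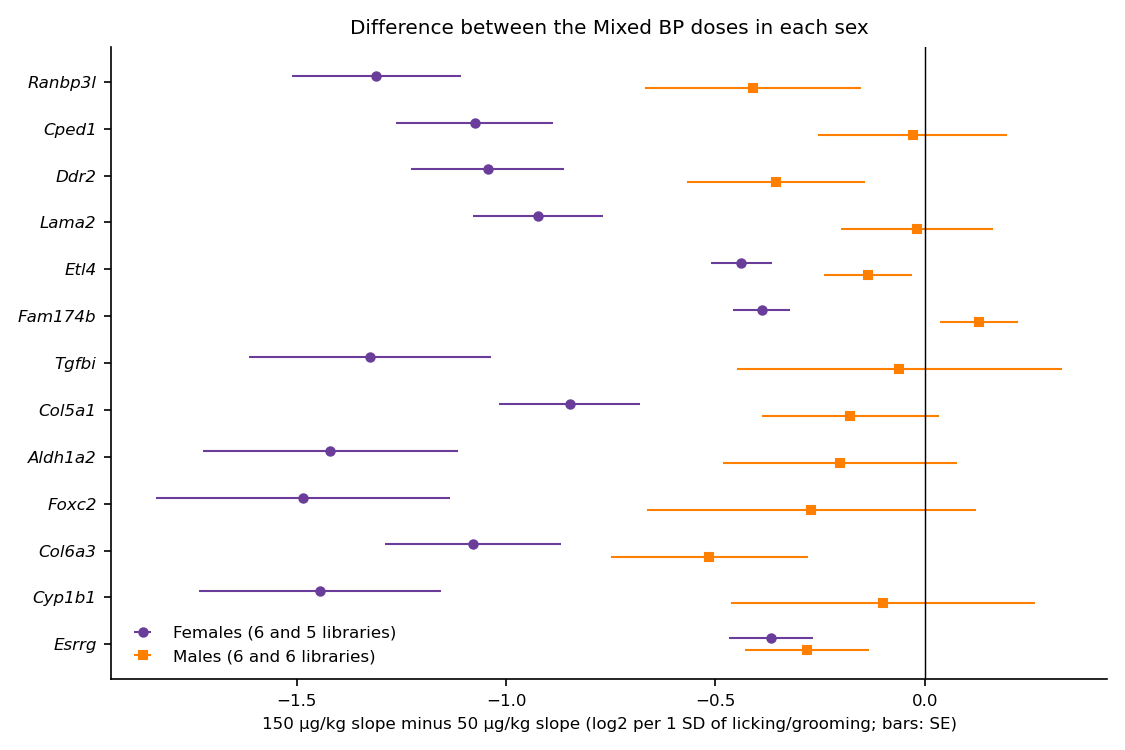
Slope after the 150 µg/kg mixture minus slope after the 50 µg/kg mixture (log2 per 1 SD of licking/grooming, with SE bars) in females and males for the 6 called genes and 7 further named genes. Female values run from -0.37 to -1.48 and male values from 0.13 to -0.51.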

How the data were processed

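The authors deposited whole-number counts per gene from Tag-seq libraries read at the 3' ends of transcripts, as 1 table per sex from which, per the file names, outlying libraries had been removed. Per the submitters' processing notes, cutadapt 1.18, STAR 2.7.3a, SAMtools 1.10, bedtools 2.27.1 and build mRatBN7.2 were used, with no role stated, and how strand and duplicate reads were handled, or which annotation was used, is not stated in them. Genes with near-identical copies or antisense partners may therefore share counts.

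Symbols were taken from RefSeq, which matched 35203 of 40643 identifiers. Counts were filtered (minimum count 10, minimum total 15), scaled by TMM and fitted in R 4.3.3 with edgeR 4.0.16's robust quasi-likelihood model, with a mean and a licking/grooming slope for each exposure, over 22 libraries. The 3 slope differences from oil were tested jointly and the 6 differences between slopes singly, with Benjamini-Hochberg adjustment over 18354 genes and a threshold of 0.05. DESeq2 1.42.0 and limma 3.58.1 (voom with quality weights) were alternatives. Log2 CPM used a prior count of 2. A gene was named if it was among the 12 lowest joint p-values, the 5 lowest in each direction of a difference from oil, a called gene (up to 15), up to 3 members per list with a joint p under 0.05, or Esrrg, in all 84 genes, some of which are not reported here. The gene lists, with the genes in them, were written with earlier results of these data known. The fit was also run on simulated counts with planted slope differences larger than most reported here. Genes were drawn independently there, so the run does not bear on smaller differences or on variation that genes share.

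Replicates are pups of different litters, read from the library names, and which dams shared a cage is not given in the labels used here. Same-numbered libraries of different groups had correlations of deviations from -0.334 to 0.255 over 31 pairs, so the numbers were not treated as pairs. No 2 libraries of a group agreed within sampling noise (lowest chi-square per degree of freedom 2.02).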

Additional observations from a re-analysis of the deposited data

Results flagged for a closer look

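Of 112 sets of 5 or 6 libraries checked for a single library far from its group, 5 had one. The rule would flag about 1 in 20 of independent sets. These sets share libraries, and most of their genes were chosen by a low joint p in the same data. The number can therefore not be set against chance. In the 50 µg/kg mixture group, replicate 5, the least licked pup, had 10.4 CPM of Ranbp3l against 31.71 to 59.33 in the other 5 libraries. The same library had 3.049 CPM of Aldh1a2 against 10.35 to 19.24, and a meningeal marker mean of 2.991 log2 CPM against 4.272 to 4.833. In the 150 µg/kg mixture group, replicate 2, the most licked pup, had an astrocyte marker mean of 5.586 log2 CPM against 5.959 to 6.032. In the BPA group, replicate 3, the least licked pup, had 22.68 CPM of Arpc1b, a subunit of the actin-nucleating Arp2/3 complex, against 16.13 to 17.04.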

How the results depend on the processing

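Without a filter on low counts 12 genes passed the joint test, where 0 did in the analysis as reported, and DESeq2 called 14, voom 1 and the fit with the striatal minus preoptic marker mean 1. Leaving out single libraries gave 0 to 7, the 7 without replicate 1 of the 150 µg/kg mixture. For the 50 µg/kg mixture against oil, the fit without robust estimation and the fit with the replicate number as a block each called 1 gene, and leaving out single libraries gave 0 to 1, the 1 being Tgfbi without replicate 4 of that mixture. For the 150 µg/kg mixture, DESeq2 called 1 gene against oil and 1 against BPA, Pou4f1 in both. For the 50 µg/kg mixture against BPA, DESeq2 called 2, the fit on only those groups 2, the region marker fit 1 and leaving out single libraries 0 to 1, the 1 without replicate 1 of the 150 µg/kg mixture. Between the mixture doses, where 6 genes were called, DESeq2 gave 79, voom 33 and no filter 57. The count was 0 with log2 licking/grooming, with nest attendance added, with the fibroblast or the meningeal mean added, on only the 2 groups and without replicate 5 of the 50 µg/kg and replicate 2 of the 150 µg/kg mixture (the joint test then also gave 0). It was 1 with the region markers, 1 without the lowest licking/grooming library of each group, and 3 under the replicate block, Cped1 among them being the 1 shared gene. Leaving out single libraries gave 0 to 43: 43 and 42 without replicates 6 and 1 of the 50 µg/kg mixture, 16 without oil replicate 3, and 13, 11 and 2 without replicates 1, 3 and 4 of the 150 µg/kg mixture. RLE scaling, the stricter filter and no robust estimation gave 6, and ranks of licking/grooming gave 8. The replicate numbers do not pair the libraries, since 6 of 31 same-number correlations were over 0.1 and 5 of 22 libraries correlated best with their own number. The difference from oil after the 50 µg/kg mixture changed sign for Cfap126 (-0.46 as reported) to 0.21 without the lowest licking/grooming libraries and 0.0596 without the pair above, for Dnah9 (-0.36) to 0.0767 and 0.0435, and for Gjb6 to -0.1269 with the meningeal mean. Leaving out single libraries gave -0.7183 to 0.0649 for Cfap126 and -0.4489 to 0.0489 for Dnah9. The causes of these shifts were not tested. With 5 or 6 libraries a group each slope rests on few pups, and genes of a few CPM, such as Tgfbi and Foxc2, on few counts.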
